A study of Rattus norvegicus with 71 samples.

Results

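Sterols and long-chain fatty acids are built from acetyl-CoA by separate sets of enzymes, and the RNA of 35 genes of these pathways was followed in rat primary cortical cultures exposed to 6 compounds. The genes were taken by symbol, from a list of enzymes and regulators of both pathways, out of the 19771 genes of the deposited table. This list was chosen with earlier results of these data known. All 35 were among the 15343 genes that passed the filter on low counts. The sterol branch held 22 of them, and the fatty acid branch held 13. The question asked of each compound and concentration was which of these genes differed from that compound's own 0 µM libraries, and whether the difference moved further with concentration.

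In the mevalonate pathway acetyl-CoA is condensed, phosphorylated and decarboxylated into isoprenoid units, which are joined into squalene and then closed and trimmed into cholesterol. The transcription factor SREBP-2, encoded by Srebf2, is bound to its escort Scap and held in the endoplasmic reticulum by Insig1 when sterol is plentiful. When sterol is scarce it reaches the nucleus, where it raises transcription of nearly the whole pathway. SREBP-1, encoded by Srebf1, acts in the same way but drives fatty acid synthesis and desaturation more, and one of its transcripts is also induced by liver X receptors. In brain, cholesterol is made locally, chiefly by oligodendrocytes for myelin and by astrocytes for supply to neurons.

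The cells grew on multi-well microelectrode array plates. Dosing began 2 h after plating and was renewed at 5, 7 and 9 days in vitro, and the RNA was taken at 12 days. Cytosine arabinoside (0.1, 0.3 and 1 µM), a nucleoside analogue that blocks DNA synthesis, and 5-fluorouracil (0.1, 0.3 and 1 µM), a pyrimidine antimetabolite, were tested. Domoic acid (0.1, 0.3 and 1 µM) is an agonist of glutamate receptors of the kainate class. Deltamethrin (0.3, 1, 3 and 10 µM) and cypermethrin (1, 3 and 10 µM) are pyrethroids acting on sodium channels. Haloperidol (0.3, 1 and 3 µM) is a dopamine receptor blocker that also binds the sterol isomerase encoded by Ebp. Each compound had its own 0 µM libraries from vehicle-treated wells. Groups held 3 libraries each, except 2 libraries at 0 µM of 5-fluorouracil and of cypermethrin and 1 library at 0.3 µM deltamethrin.

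Each library came from 2 to 3 pooled wells, and the work used 2 cultures. Since no label ties a library to its culture, p-values here reflect the spread among these libraries alone, which may be partly technical. The titles carry a project code, GRC321 for 24 libraries and GRC327 for 47, and replicate 1 of each group is the GRC321 library except at 0 µM 5-fluorouracil, where both libraries are GRC327. Total counts per library ran from 5207618 to 43119260, with a median of 10193887. Levels are CPM, counts scaled to library size with TMM factors, and can be compared between libraries for a gene, not between genes, since no transcript lengths were given. A gene was called when its Benjamini-Hochberg adjusted p from edgeR's quasi-likelihood test over all 15343 genes was under 0.05. Where the libraries of 2 groups are said not to overlap, the share of all tested genes doing so was not counted. Domoic acid 0.3 µM replicate 2 stood apart, with a median correlation of 0.962 with the other libraries of its project, against 0.9794 for the next lowest outside cytosine arabinoside.

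The cultures held RNA of several cell types. In the 0 µM libraries of cytosine arabinoside, 6 neuron markers summed to 6513 to 7443 CPM, 8 astrocyte markers to 2097 to 3259 CPM, 11 oligodendrocyte lineage markers to 1381 to 1701 CPM and the dividing-cell markers Top2a and Mki67 to 110 to 138 CPM. The 4 microglia markers did not pass the count filter and were not tested, and they summed to 0.299 to 0.622 CPM in these libraries.

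The start regions of 4 members called with cytosine arabinoside are shown. Of these, Fdps, Nsdhl and Ebp were higher at 0.1 µM, and Srebf1 was lower at each concentration. Whether the sequences play a part in the calls was not tested. Each line holds 250 bases before and 50 bases from the start of the gene, 5′ to 3′ on the gene's strand, from RefSeq on build GRCr8. Capitals mark CCAAT letters in either orientation, the box bound by NF-Y, a usual partner of SREBP. Fdps lies at chr2:176804767-176805066 (minus strand), Nsdhl at chrX:155817110-155817409 (plus strand) and Ebp at chrX:16971212-16971511 (plus strand). The upstream Srebf1 start lies at chr10:45529115-45529414 and the downstream one at chr10:45518961-45519260, both on the minus strand.
Fdps: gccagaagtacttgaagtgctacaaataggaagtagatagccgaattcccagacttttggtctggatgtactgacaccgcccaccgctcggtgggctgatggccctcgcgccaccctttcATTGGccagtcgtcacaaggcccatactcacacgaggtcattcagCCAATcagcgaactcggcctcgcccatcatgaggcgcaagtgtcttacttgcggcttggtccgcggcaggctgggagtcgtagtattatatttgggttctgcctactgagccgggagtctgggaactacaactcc
Nsdhl: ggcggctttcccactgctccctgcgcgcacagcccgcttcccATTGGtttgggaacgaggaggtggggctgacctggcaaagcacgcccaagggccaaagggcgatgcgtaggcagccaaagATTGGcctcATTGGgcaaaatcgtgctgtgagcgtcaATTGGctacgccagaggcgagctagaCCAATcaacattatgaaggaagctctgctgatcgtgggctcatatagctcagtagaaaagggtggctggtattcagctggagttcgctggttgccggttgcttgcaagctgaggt
Ebp: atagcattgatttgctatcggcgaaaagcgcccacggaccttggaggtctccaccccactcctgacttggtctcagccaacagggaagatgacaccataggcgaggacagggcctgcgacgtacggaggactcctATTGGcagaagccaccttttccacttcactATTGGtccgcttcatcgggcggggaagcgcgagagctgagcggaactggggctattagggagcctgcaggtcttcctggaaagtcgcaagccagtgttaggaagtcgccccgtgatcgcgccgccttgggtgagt
Srebf1, upstream start: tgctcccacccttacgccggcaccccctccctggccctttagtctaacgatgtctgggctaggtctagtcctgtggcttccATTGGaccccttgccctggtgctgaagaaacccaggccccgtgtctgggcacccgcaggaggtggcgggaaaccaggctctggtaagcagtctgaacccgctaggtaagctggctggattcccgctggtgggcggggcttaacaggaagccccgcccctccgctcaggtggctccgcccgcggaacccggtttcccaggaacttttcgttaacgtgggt
Srebf1, downstream start: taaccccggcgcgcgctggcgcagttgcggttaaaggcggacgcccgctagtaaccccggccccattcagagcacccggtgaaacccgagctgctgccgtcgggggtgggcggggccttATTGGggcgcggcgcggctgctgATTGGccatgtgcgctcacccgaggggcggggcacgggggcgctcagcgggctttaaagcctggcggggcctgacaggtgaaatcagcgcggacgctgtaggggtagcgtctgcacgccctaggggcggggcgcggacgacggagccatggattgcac

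Fdps had 2 such boxes, Nsdhl 5, Ebp 2, and the Srebf1 starts 1 and 2. Entries were found by symbol for 18 of the 22 sterol genes and 10 of the 13 fatty acid genes. CCAAT letters stood in 14 of the 18 sterol entries (77.8%) and in 8 of the 11 fatty acid entries (72.7%), against 37.5% of all 33469 promoter entries of this length. The letters TCACNCCAC on either strand, a form of the sterol response element, stood in 0 of the 18 and 0 of the 11, against 1.12% of all entries. No entry of either branch held both motifs. These counts describe letters within this window only.

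Every call among the members at any concentration came from cytosine arabinoside, apart from Mvd with domoic acid at 0.3 µM and Srebf1 with 5-fluorouracil at 1 µM. With cytosine arabinoside, 10 of the 22 sterol genes were higher at the lowest concentration, against 2.38% of all tested genes. At the highest, 3 were higher and 4 lower, against 16.6% and 19.4% of all tested genes. The counts at the highest concentration thus do not exceed the share over all genes. Srebf1, Me1 and the desaturases Scd, Fads1 and Fads2 fell at both steps above 0.1 µM.

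**Figure D1:**
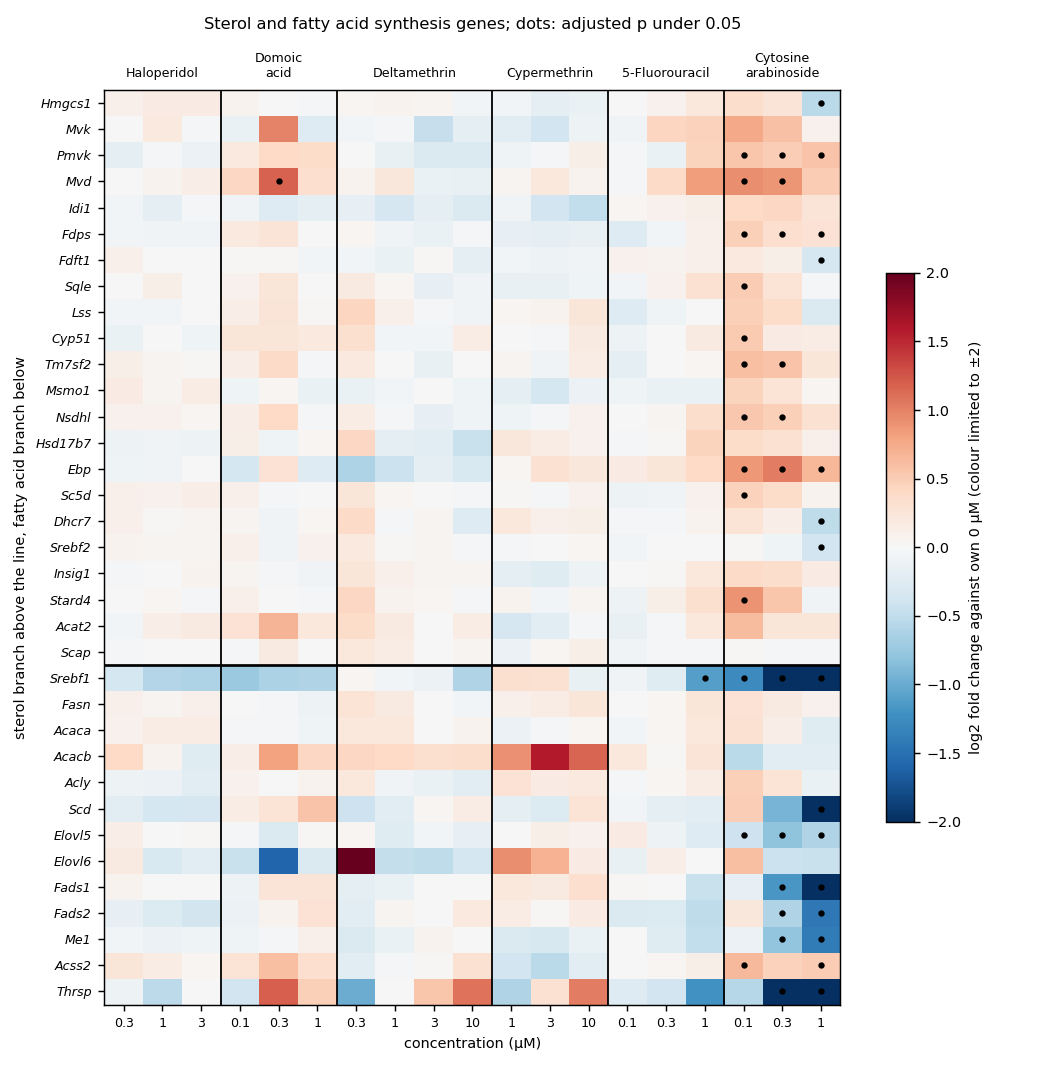
Log2 fold change of each of the 35 members (rows) at each concentration in µM of each compound (columns) against that compound's own 0 µM libraries, with colour limited to ±2 and a dot where the edgeR adjusted p was under 0.05. The red block of the sterol rows at 0.1 µM cytosine arabinoside holds 10 dots, and the dark blue rows below the line are Srebf1, Scd, Fads1, Fads2, Me1 and Thrsp.

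At 0.1 µM cytosine arabinoside, 10 of the 22 sterol genes were higher and 0 were lower, against 2.38% higher and 6.75% lower among all tested genes. The median log2 fold change of the 22 was 0.48, against 0.008 over all tested genes. All 22 had a positive sign, against 50.9% of all tested genes, and 16 had an unadjusted p under 0.05, against 20.5%. DESeq2 also called 0 lower. At 0.3 µM, 6 were higher and 0 lower, with a median of 0.34, against 5.96% higher and 11.7% lower among all tested genes and a median of 0.018. There 20 of 22 signs were positive and 11 had an unadjusted p under 0.05, against 52% and 27.6% of all tested genes. At 1 µM, 3 were higher and 4 lower, with a median of 0.10, against 16.6% higher and 19.4% lower and a median of 0.032. These counts at 1 µM do not exceed the share over all genes. All 3 comparisons share the same 0 µM libraries. Since the members were chosen with earlier results of these data known, the counts beside the shares over all genes are a description. The branch median thus was largest at the lowest concentration, where fewest genes in all were called (9.13%, against 17.6% at 0.3 µM and 36% at 1 µM).

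Beside these values, the oligodendrocyte lineage marker sum was 1381 to 1701 CPM at 0 µM, 137 to 155 at 0.1 µM, 92.4 to 106 at 0.3 µM and 57.0 to 82.2 at 1 µM. The astrocyte marker sum was 2097 to 3259 CPM at 0 µM, 1284 to 1646 at 0.1 µM, 466 to 789 at 0.3 µM and 115 to 148 at 1 µM. The neuron marker sum was 6513 to 7443 CPM at 0 µM, 7106 to 8596 at 0.1 µM, 6394 to 9752 at 0.3 µM and 5433 to 8706 at 1 µM. All 11 oligodendrocyte markers were lower at each concentration, and of the 8 astrocyte markers 5, 8 and 8 were lower. Of the 6 neuron markers 0, 3 and 0 were higher and 0 were lower (edgeR, with unadjusted p under 0.05 for 3, 3 and 2). In bulk RNA, fewer cells of a type and less RNA per cell cannot be told apart, and the part of cell composition in the members' changes was not tested.

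Among the mevalonate enzymes, Fdps, which makes farnesyl diphosphate, had 222, 260 and 214 CPM at 0 µM cytosine arabinoside, 288 to 359 over the 3 libraries at 0.1 µM, 245, 319 and 318 at 0.3 µM, and 254, 260 and 344 at 1 µM. At 0.1 µM all 3 libraries were above those of 0 µM, and at 0.3 and 1 µM the groups overlapped. Over the 0 µM libraries of all compounds Fdps ran from 196 to 234 CPM in GRC321 and from 214 to 384 CPM in GRC327. The log2 fold change was 0.48 ± 0.11 (SE, adjusted p = 0.00316) at 0.1 µM, 0.33 ± 0.11 (adjusted p = 0.0358) at 0.3 µM and 0.30 ± 0.11 (adjusted p = 0.0378) at 1 µM. From 0.1 to 1 µM it changed by -0.18 (95% interval -0.41 to 0.05), so no move with concentration was detected. The call ended at every concentration without 0 µM replicate 3 (adjusted p = 0.0598, 0.246 and 0.25), at 0.3 µM also without 0.3 µM replicate 2 or 3 (adjusted p = 0.111 and 0.11) and at 1 µM without 1 µM replicate 1 or 3 (adjusted p = 0.0855 and 0.265). Against the 0 µM libraries of all compounds, the values at 0.3 and 1 µM were 0.15 and 0.12 and did not pass (edgeR, adjusted p = 0.275 and 0.33).

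Mvd, the mevalonate diphosphate decarboxylase, given here after its values were seen, had 16.8, 14.3 and 9.21 CPM at 0 µM, 26.0, 23.2 and 26.5 at 0.1 µM, 22.5, 27.1 and 23.6 at 0.3 µM, and a mean of 19.02 ± 4.205 (SD, n = 3) at 1 µM. All libraries of 0.1 and 0.3 µM lay above all of 0 µM. Its log2 fold changes were 0.93 ± 0.23 (SE, adjusted p = 0.00523) and 0.88 ± 0.23 (adjusted p = 0.00444) at these concentrations, and 0.51 ± 0.23 at 1 µM, which did not pass (adjusted p = 0.0806). Both calls ended without 0 µM replicate 3, the library with the lowest level (adjusted p = 0.083 and 0.0732).

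Pmvk, which phosphorylates mevalonate phosphate, was higher at every concentration, by 0.56, 0.49 and 0.57 on the log2 scale (adjusted p = 0.0126, 0.0193 and 0.00229). Its difference between 1 and 0.1 µM was 0.01 (95% interval -0.29 to 0.32). Without 0 µM replicate 3 none of these calls remained (adjusted p = 0.182, 0.241 and 0.0673). Those at 0.1 and 0.3 µM also ended without 0.1 µM replicate 2 (adjusted p = 0.101) and 0.3 µM replicate 3 (adjusted p = 0.127).

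Acat2, the cytosolic thiolase that makes acetoacetyl-CoA, was 0.63 higher at 0.1 µM with an adjusted p of 0.0506, and reads may be shared with its near copy Acat2l1. Mvk, the mevalonate kinase, had log2 values of 0.76, 0.59 and 0.09 and did not pass at any concentration. Idi1, the isopentenyl diphosphate isomerase, had log2 values of 0.40, 0.41 and 0.25 with none past the threshold.

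Hmgcs1, the HMG-CoA synthase at the head of the pathway, behaved otherwise. It had 3298, 2612 and 2728 CPM at 0 µM, 4155, 3168 and 3634 at 0.1 µM, 4924, 2451 and 3222 at 0.3 µM, and 2495, 1181 and 2318 at 1 µM. The 3 libraries of 1 µM lay below all of 0 µM, and the other groups overlapped those of 0 µM. The log2 values were 0.34 and 0.26 at the lower concentrations, neither past the threshold, and -0.54 ± 0.15 (SE, adjusted p = 0.00371) at 1 µM. From 0.1 to 1 µM it fell by 0.89 on the log2 scale (adjusted p = 9.63e-06). Replicate 2 at 1 µM was the lowest library, and without it the difference from 0 µM was -0.31 with an adjusted p of 0.106.

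Of the enzymes from squalene to cholesterol, 6 of 11 were higher at 0.1 µM, 3 at 0.3 µM and 1 at 1 µM, where 2 were lower. Among all tested genes 2.38%, 5.96% and 16.6% were higher at these concentrations and 19.4% lower at 1 µM, so the counts at 1 µM do not exceed the share over all genes.

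Sqle, the squalene epoxidase and a rate-limiting step of the pathway, had 422, 321 and 301 CPM at 0 µM, 618, 405 and 460 at 0.1 µM, 463, 341 and 444 at 0.3 µM, and 397, 234 and 385 at 1 µM. In each project the 0.1 µM libraries lay above those of 0 µM, although GRC321 replicate 1 at 0 µM exceeded replicate 2 at 0.1 µM. It differed from 0 µM, on the log2 scale, by 0.50 ± 0.11 (SE, adjusted p = 0.00123) at 0.1 µM, 0.27 ± 0.11 (adjusted p = 0.087) at 0.3 µM and -0.03 ± 0.11 (adjusted p = 0.841) at 1 µM. From 0.1 to 1 µM it fell by 0.54 (adjusted p = 0.000183), so the rise receded as the concentration grew. The call at 0.1 µM ended in a fit without a project term (adjusted p = 0.231), in GRC327 alone (adjusted p = 0.0562) and in a fit of this compound alone (adjusted p = 0.139).

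Ebp, the sterol isomerase, had low levels of 5.91, 6.17 and 4.43 CPM at 0 µM, 10.3, 9.44 and 10.4 at 0.1 µM, 14.9, 11.2 and 7.98 at 0.3 µM, and 8.93, 5.83 and 11.3 at 1 µM. All libraries of 0.1 and 0.3 µM were above those of 0 µM, and replicate 2 at 1 µM was not. The log2 fold changes were 0.87 ± 0.23 (SE, adjusted p = 0.0101), 1.03 ± 0.23 (adjusted p = 0.000844) and 0.66 ± 0.23 (adjusted p = 0.0203). The call at 1 µM ended without 0 µM replicate 1, 0 µM replicate 3 or 1 µM replicate 3, with a lowest value of 0.33 (adjusted p = 0.316), and the call at 0.1 µM without 0 µM or 0.1 µM replicate 3 (adjusted p = 0.0773 and 0.0546).

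Nsdhl, a dehydrogenase of the demethylation of lanosterol, had 89.3, 51.8 and 54.1 CPM at 0 µM, 137, 73.8 and 75.0 at 0.1 µM, 136, 68.0 and 71.7 at 0.3 µM, and 124, 49.6 and 74.5 at 1 µM. The GRC321 library was the highest of each group, and within both projects the libraries of 0.1 and 0.3 µM exceeded those of 0 µM. Its log2 fold changes were 0.53 ± 0.13 (SE, adjusted p = 0.0033), 0.47 ± 0.13 (adjusted p = 0.00589) and 0.31 ± 0.13 (adjusted p = 0.0522). Without 0 µM replicate 1 the value at 0.3 µM was 0.40 with an adjusted p of 0.0587. Both calls ended in a fit without a project term (adjusted p = 0.827 and 0.691) and in GRC327 alone (adjusted p = 0.0909 and 0.131). That at 0.1 µM also ended in a fit of this compound alone (adjusted p = 0.0505).

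Tm7sf2, a sterol reductase, was higher by 0.60 at 0.1 µM (adjusted p = 0.046) and 0.57 at 0.3 µM (adjusted p = 0.0383). It overlaps Vps51 on the same strand, which was not called (log2 0.19 and 0.06). Both Tm7sf2 calls ended without 0 µM replicate 1 or 2 and others (largest adjusted p = 0.301 and 0.328). Cyp51, the lanosterol demethylase, was 0.53 higher (adjusted p = 0.0101) and Sc5d, the sterol desaturase, 0.46 higher (adjusted p = 0.0349) at 0.1 µM, and neither was called at 0.3 or 1 µM. The Cyp51 call ended without 0 µM replicate 2 (adjusted p = 0.086) or 0.1 µM replicate 3 (adjusted p = 0.0973), and the Sc5d call without each of the 6 libraries except 0.1 µM replicate 2 (largest adjusted p = 0.17). Both receded, by -0.38 and -0.39 from 0.1 to 1 µM (adjusted p = 0.0446 and 0.0472). Both of these differences lost their call without 0.1 µM replicate 1 or 3 or 1 µM replicate 1 or 2, and without 1 µM replicate 2 they were -0.17 and -0.18 (adjusted p = 0.435 and 0.423).

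Lss, the lanosterol synthase, had log2 values of 0.48, 0.37 and -0.28 with none past the threshold, yet fell by 0.76 from 0.1 to 1 µM (adjusted p = 0.00131).

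Fdft1, the squalene synthase, and Dhcr7, the reductase of the last step, were lower at 1 µM, by -0.34 (adjusted p = 0.0294) and -0.51 (adjusted p = 0.0308). From 0.1 to 1 µM they fell by 0.53 and 0.79 (adjusted p = 0.00111 and 0.00151). Without 1 µM replicate 2 the difference from 0 µM was -0.14 for Fdft1 (adjusted p = 0.404) and -0.33 for Dhcr7 (adjusted p = 0.228). The Fdft1 call also ended without 0 µM replicate 1 or 3 or 1 µM replicate 1, and the Dhcr7 call without each library except 1 µM replicate 3. Msmo1, the methylsterol oxidase, had log2 values of 0.45, 0.28 and 0.04, and Hsd17b7, a ketoreductase of the same steps, 0.36, 0.30 and 0.10, with none past the threshold.

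Of the regulators and carriers, Stard4, which moves cholesterol between membranes and is given here after its values were seen, had 103, 114 and 95.4 CPM at 0 µM, 199, 176 and 207 at 0.1 µM, 154, 112 and 194 at 0.3 µM, and 71.7, 54.1 and 175 at 1 µM. At 0.1 µM all libraries lay above those of 0 µM, and at 1 µM replicates 1 and 2 lay below and replicate 3 above. Against 0 µM its log2 difference was 0.90 ± 0.23 (SE, adjusted p = 0.00718) at 0.1 µM, and from 0.1 to 1 µM it fell by 0.96 (adjusted p = 0.00139). The call at 0.1 µM ended without 0 µM replicate 3 (adjusted p = 0.0554) or 0.1 µM replicate 1 (adjusted p = 0.0586).

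Srebf2 had log2 values of 0.03 and -0.09 at the lower concentrations and was lower at 1 µM, by -0.39 ± 0.11 (SE, adjusted p = 0.00348), with 428, 408 and 610 CPM against 674, 609 and 615 at 0 µM. The call ended without 1 µM replicate 1 (adjusted p = 0.081) or 2 (adjusted p = 0.0565). Scap, the escort of the SREBPs, had log2 values of 0.02, -0.03 and -0.02. Insig1, the retention protein, had log2 values of 0.38, 0.35 and 0.17, with none past the threshold.

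**Figure D2:**
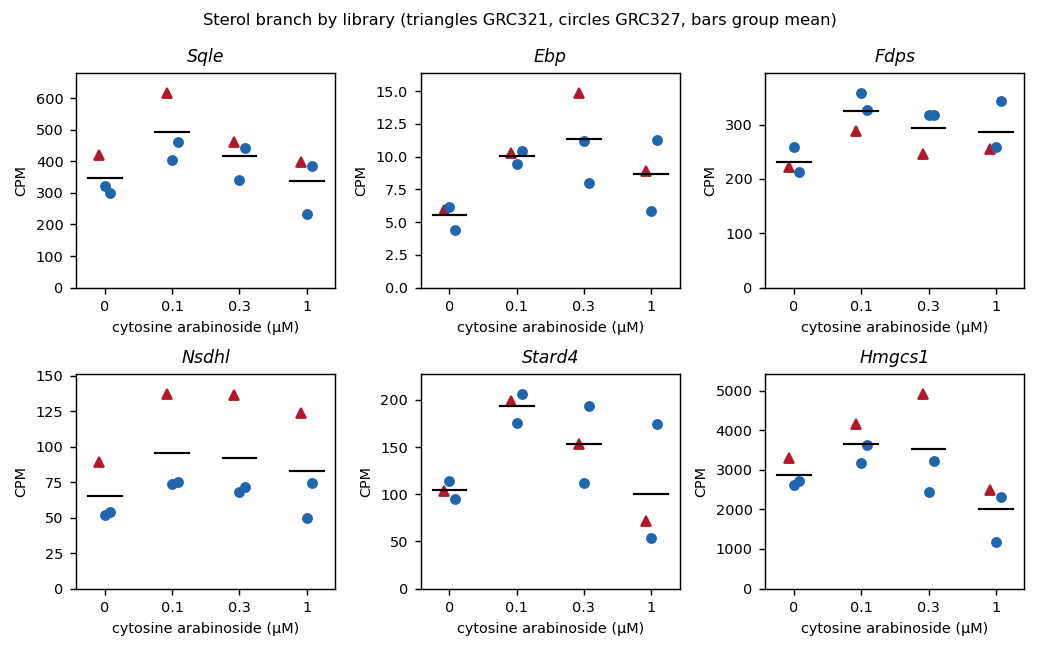
Level in CPM of 6 sterol branch genes in each cytosine arabinoside library, by concentration in µM, with triangles for GRC321, circles for GRC327 and bars for the group mean. Sqle, Stard4 and Nsdhl stand highest on average at 0.1 µM, Ebp at 0.3 µM, and Hmgcs1 falls below its 0 µM libraries at 1 µM.

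Split by project, the libraries of the fit gave the same sign for most sterol genes at the low concentrations, a description without a test. At 0.1 µM the level exceeded that of 0 µM for 21 of 22 sterol genes in GRC321 (1 library against 1, median log2 ratio 0.48) and for 22 of 22 in GRC327 (2 against 2, median 0.46). At 0.3 µM these counts were 20 and 21. At 1 µM they were 10 of 22 with a median of -0.09 in GRC321 and 14 of 22 with a median of 0.15 in GRC327.

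Single libraries and the project term weighed on the counts. Without a project term the count of higher sterol genes was 2 at 0.1 µM and 2 at 0.3 µM, and from GRC327 alone 3 and 2. At 0.1 µM, leaving out 0 µM replicate 3 left 5 higher sterol genes, leaving out 0.1 µM replicate 3 left 6, and the largest such count was 9. It was 3 to 7 at 0.3 µM, with 3 without 0 µM replicate 3. At 1 µM, 0 lower genes remained once replicate 2 was left out, 1 once replicate 1 was, and 2 once 0 µM replicate 1 or 3 was, while dropping replicate 3 gave 6. The higher genes numbered 0 if 0 µM replicate 3 was dropped, 1 if 1 µM replicate 3 was, and 8 if 1 µM replicate 2 was. Over all tested genes and both directions, leaving out 1 library gave 906 to 1184 calls at 0.1 µM, against 1401 in the full fit. The corresponding values were 2144 to 2455 against 2703 at 0.3 µM and 4467 to 5599 against 5520 at 1 µM. Shares by direction were not counted in these fits. The share of mitochondrial counts at 1 µM was 3.66% to 9.12%, against 2.96% to 4.61% at 0 µM, and replicate 1 held the 9.12%.

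Between concentrations, 9 of the 22 sterol genes were lower at 1 than at 0.1 µM cytosine arabinoside and 0 were higher (edgeR, with 0 higher at an unadjusted p under 0.05), against 13.7% lower and 10.4% higher among all tested genes. The 9 were Hmgcs1, Fdft1, Sqle, Lss, Cyp51, Sc5d, Dhcr7, Srebf2 and Stard4, and the count was 15 without 1 µM replicate 3 and 6 without 1 µM replicate 1. For these leave-out fits the share over all tested genes was not counted. The step from 0.1 to 0.3 µM gave 0 sterol calls (edgeR, with 2 at an unadjusted p under 0.05, Sqle and Cyp51, both negative), against 2.31% of all tested genes. The step from 0.3 to 1 µM gave 4 lower, namely Hmgcs1, Lss, Fdft1 and Dhcr7, against 7.96% lower among all tested genes. Without 1 µM replicate 1 or 2 the Srebf2 difference did not pass (adjusted p = 0.0748 and 0.0523). Of the 10 genes called at 0.1 µM, 4 were lower at 1 than at 0.1 µM (Sqle, Cyp51, Sc5d and Stard4). Of 8 alternative settings, the call held in 7 for Sqle, 6 for Stard4, 3 for Cyp51 and 2 for Sc5d, and those of Cyp51 and Sc5d also rest on single libraries. For the other 6 (Pmvk, Mvd, Fdps, Tm7sf2, Nsdhl and Ebp) the difference between the highest and lowest concentration did not pass.

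In the fatty acid branch, 1 gene was higher and 2 lower of 13 at 0.1 µM cytosine arabinoside, 0 higher and 6 lower at 0.3 µM, and 1 higher and 7 lower at 1 µM. Among all tested genes the shares were 2.38% higher and 6.75% lower at 0.1 µM, 5.96% and 11.7% at 0.3 µM, and 16.6% and 19.4% at 1 µM. The branch medians were 0.22, -0.60 and -0.60, against 0.008, 0.018 and 0.032 over all tested genes. For the count of 0 at 0.3 µM, Acss2 alone had a positive sign with an unadjusted p under 0.05, and DESeq2 also called 0. The lower calls fell on Srebf1, the desaturases, Elovl5, Me1 and Thrsp, while the enzymes of chain building were not called.

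Srebf1 was lower at every concentration. It had 198, 265 and 264 CPM at 0 µM, 96.0, 113 and 88.4 at 0.1 µM, 28.09, 29.49 and 25.02 at 0.3 µM, and 7.17, 14.6 and 16.1 at 1 µM. No group overlapped the next. Its change on the log2 scale was -1.27 ± 0.19 (SE, adjusted p = 1.21e-06) at 0.1 µM, -3.12 ± 0.20 (adjusted p = 2.72e-17) at 0.3 µM and -4.25 ± 0.21 (adjusted p = 2.31e-22) at 1 µM. Each step passed, with -1.85 from 0.1 to 0.3 µM (adjusted p = 6.07e-09) and -1.13 from 0.3 to 1 µM (adjusted p = 8.33e-05). It was lower within both projects, with log2 ratios at 1 µM of -4.79 in GRC321 and -4.11 in GRC327. Srebf1 overlaps Rai1 on the opposite strand, and Rai1 was not called at 0.1, 0.3 or 1 µM (log2 0.19, 0.34 and 0.09). The strandedness of the counting was not given.

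**Figure D3:**
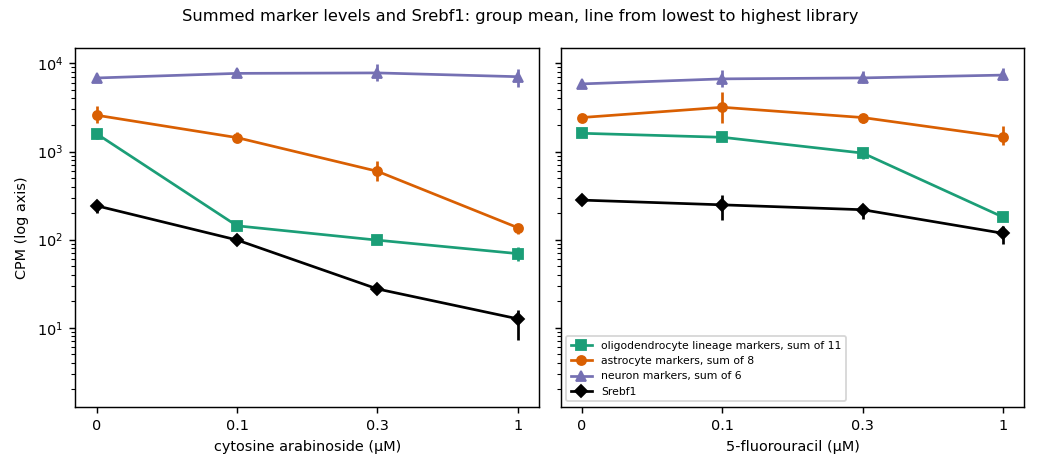
Summed CPM of the marker lists and CPM of Srebf1, on a log axis, against concentration in µM for cytosine arabinoside (left) and 5-fluorouracil (right), with points for group means and lines from the lowest to the highest library. Srebf1, the astrocyte sum and the oligodendrocyte lineage sum all lie lower at 1 µM than at 0 µM, and the mean neuron sum does not.

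The desaturases put double bonds into fatty acids. Fads1, which acts late in the synthesis of polyunsaturated chains, had 543, 507 and 513 CPM at 0 µM, 491, 470 and 433 at 0.1 µM, 258, 216 and 223 at 0.3 µM, and 88.5, 111 and 140 at 1 µM. The libraries of each concentration lay below all of the concentration before. The log2 fold change was -0.16 ± 0.17 (SE, adjusted p = 0.661) at 0.1 µM, -1.16 ± 0.17 (adjusted p = 5.12e-07) at 0.3 µM and -2.20 ± 0.18 (adjusted p = 6.85e-15) at 1 µM.

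Fads2, the first desaturase of the same route, had 274, 648 and 665 CPM at 0 µM, 291, 813 and 796 at 0.1 µM, 190, 415 and 425 at 0.3 µM, and 88.9, 163 and 353 at 1 µM. The GRC321 library was the lowest of each group, and within each project the libraries of 0.3 and 1 µM lay below those of 0 µM. Relative to 0 µM it changed, as log2, by 0.22 at 0.1 µM, -0.60 ± 0.20 (SE, adjusted p = 0.0258) at 0.3 µM and -1.44 ± 0.20 (adjusted p = 6.53e-08) at 1 µM. The call at 0.3 µM ended without 0 µM replicate 1 or 3 or 0.3 µM replicate 2 or 3 (largest adjusted p = 0.1).

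Scd, the stearoyl-CoA desaturase, given here after its values were seen, had 874, 490 and 832 CPM at 0 µM, 1088, 727 and 1234 at 0.1 µM, 707, 140 and 385 at 0.3 µM, and 146, 33.3 and 223 at 1 µM. At 1 µM all libraries lay below those of 0 µM, and replicate 2 was the lowest at 0.3 and 1 µM. As log2, its fold change was 0.50 ± 0.34 at 0.1 µM (SE, adjusted p = 0.452), -0.93 ± 0.34 at 0.3 µM (adjusted p = 0.0527) and -2.43 ± 0.36 at 1 µM (adjusted p = 2.07e-07). Both steps between concentrations passed, at -1.43 and -1.50 (adjusted p = 0.0115 and 0.00195). Near copies of this gene can share its reads.

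Elovl5, an elongase of polyunsaturated chains, was lower at every concentration with no further move detected, at log2 values of -0.41, -0.80 and -0.60 (adjusted p = 0.0203, 1.06e-06 and 6.13e-05) and a difference of -0.19 between 1 and 0.1 µM (adjusted p = 0.276). The call at 0.1 µM ended without 0 µM replicate 1 or 3 or 0.1 µM replicate 2 or 3 (largest adjusted p = 0.125). Elovl6, the elongase of saturated chains, had log2 values of 0.61, -0.42 and -0.45, with none past the threshold. Its level differed between projects already at 0 µM, where the 5 GRC321 libraries of all compounds held 0 to 6.74 CPM and the 11 GRC327 libraries 41.4 to 87.7 CPM.

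Me1, the malic enzyme that supplies NADPH, had 348, 299 and 385 CPM at 0 µM, 301, 273 and 371 at 0.1 µM, 254, 140 and 208 at 0.3 µM, and 152, 111 and 131 at 1 µM. All libraries of 0.3 and 1 µM lay below those of 0 µM. It differed from 0 µM, on the log2 scale, by -0.13 ± 0.17 (SE, adjusted p = 0.766) at 0.1 µM, -0.79 ± 0.17 (adjusted p = 0.000492) at 0.3 µM and -1.40 ± 0.18 (adjusted p = 4.17e-09) at 1 µM.

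Of the acetyl-CoA sources, Acss2, which activates acetate, went the other way, with log2 values of 0.65 (adjusted p = 0.0366) at 0.1 µM, 0.46 at 0.3 µM and 0.51 (adjusted p = 0.0498) at 1 µM. Both calls ended without 0 µM replicate 1 or 3, that at 0.1 µM also without 0.1 µM replicate 2 or 3, and that at 1 µM without 1 µM replicate 1 or 3 (largest adjusted p = 0.188 and 0.248). Acly, the citrate lyase, had log2 values of 0.47, 0.28 and -0.13, not past the threshold, and fell by 0.61 from 0.1 to 1 µM (adjusted p = 0.00954). Without 1 µM replicate 1 or 2 that difference was -0.46 or -0.43 (adjusted p = 0.116 for both).

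The enzymes that build the chain itself were not called at any concentration. Fasn, the fatty acid synthase, had log2 values of 0.29, 0.17 and 0.08, with 495, 631 and 772 CPM at 1 µM, against 541, 726 and 521 CPM at 0 µM. Acaca, the acetyl-CoA carboxylase of lipogenesis, had 0.31, 0.13 and -0.25, and fell by 0.55 from 0.1 to 1 µM (adjusted p = 0.00221). Acacb, its mitochondrial partner, was low, at 1.14, 3.385 and 1.197 CPM at 0 µM, and had log2 values of -0.54, -0.23 and -0.22. Thrsp, a lipogenic regulator, had 0.126, 0.182 and 0.204 CPM at 1 µM, a sum of 7 counts over 3 libraries, against 6.64, 2.59 and 2.75 CPM at 0 µM. Its log2 fold change was -3.59 ± 0.92 (SE, adjusted p = 0.00299) at 0.3 µM and -4.25 ± 0.88 (adjusted p = 0.000111) at 1 µM.

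**Figure D4:**
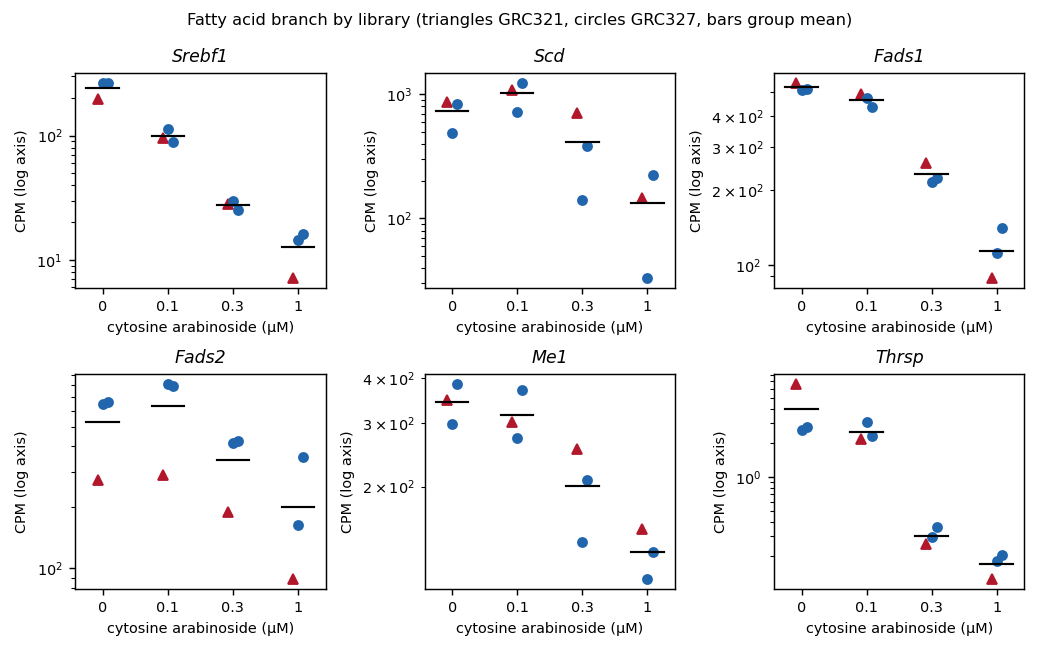
Level in CPM, on a log axis, of 6 fatty acid branch genes in each cytosine arabinoside library by concentration in µM, with triangles for GRC321, circles for GRC327 and bars for the group mean. Srebf1 steps down at each concentration without overlap, while the means of Scd and Fads2 are above 0 µM at 0.1 µM and below it at 0.3 and 1 µM.

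From 0.1 to 1 µM, 8 of the 13 fatty acid genes fell and 0 rose (edgeR, with 0 positive at an unadjusted p under 0.05), against 13.7% lower and 10.4% higher among all tested genes. From 0.1 to 0.3 µM 5 fell, namely Srebf1, Fads1, Fads2, Scd and Me1, against 2.11% of all tested genes. The same 5 fell again from 0.3 to 1 µM, against 7.96% of all tested genes. Leaving out single libraries gave 1 to 2 lower genes at 0.1 µM, 5 to 7 at 0.3 µM and 7 to 9 at 1 µM. Within GRC321 at 1 µM, 1 of 12 genes with a ratio was higher (median -1.19), and within GRC327 2 of 13 (median -0.52).

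Other genes of these pathways were read from lists of 12 further sterol genes, 8 of cholesterol efflux and liver X receptors, 24 of fatty acid handling and 4 of myelin lipids. At 1 µM cytosine arabinoside, 2 of the 12 were higher and 4 lower, 3 of the 8 were lower, 3 of the 24 higher and 7 lower, and all 4 of the myelin lipid genes lower. Among all tested genes 16.6% were higher and 19.4% lower, 36% in all. Counted in both directions, the 3 of 8 and the 10 of 24 lie near the share over all tested genes. Counted by direction, the 4 of 12, 3 of 8 and 7 of 24 lower each exceed the 19.4%, in short lists and without a test. The medians were -0.14, -0.77, -0.05 and -3.11, against 0.032 over all tested genes. All 4 myelin lipid genes were also lower at 0.1 and 0.3 µM.

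Npc2, which carries cholesterol out of lysosomes, had 6.92, 11.1 and 8.28 CPM at 1 µM cytosine arabinoside, against 53.4, 32.7 and 39.7 CPM at 0 µM, a log2 fold change of -2.18 (adjusted p = 6.57e-13). Soat1, which esterifies cholesterol, was at 0.233 times its 0 µM level (adjusted p = 8.18e-11), and Npc1, the partner of Npc2, fell by 0.74 on the log2 scale (adjusted p = 4.49e-07). Abca1, a cholesterol exporter, had 6.29, 12.2 and 6.79 CPM at 1 µM, against 175, 172 and 219 CPM at 0 µM, a log2 fold change of -4.44 (adjusted p = 2.84e-19).

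Apoe, the lipoprotein that astrocytes load with cholesterol, had 3.40, 8.93 and 4.28 CPM at 1 µM, against 82.7, 140 and 126 CPM at 0 µM, a log2 fold change of -4.34 (adjusted p = 1.29e-15). Lpcat3, which places polyunsaturated chains in phospholipids, fell by 1.05 (adjusted p = 2.49e-05). All of these groups were separate, and the astrocyte marker sum was 115 to 148 CPM at 1 µM, against 2097 to 3259 at 0 µM.

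Fabp7, the fatty acid binding protein of radial glia and astrocytes, had 8.30, 39.7 and 26.5 CPM at 1 µM, against 723, 1340 and 2318 CPM at 0 µM, a log2 fold change of -5.92 (adjusted p = 6.83e-19). Scd2, the desaturase common in brain, had 1319, 1489 and 2692 CPM at 1 µM, against 7175, 7136 and 8381 CPM at 0 µM, a log2 fold change of -2.05 (adjusted p = 4.02e-17). Elovl2, an elongase of very long polyunsaturated chains, fell by 1.63 (adjusted p = 7.94e-12). Of the myelin lipid genes, Ugt8, which makes galactosylceramide, had a log2 fold change of -2.45 (adjusted p = 3.09e-12), Fa2h, the fatty acid hydroxylase, one of -5.42 (adjusted p = 6.26e-13) and Gal3st1, the sulfatide synthase, one of -3.78 (adjusted p = 2.94e-08). Fa2h and Gal3st1 were low already at 0 µM, with means of 3.72 and 2.93 CPM.

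5-Fluorouracil lowered Srebf1 at 1 µM. Srebf1 had 299 and 263 CPM at 0 µM, 167, 258 and 319 at 0.1 µM, 172, 241 and 242 at 0.3 µM, and 120, 144 and 89.3 at 1 µM. The 1 µM libraries lay below all others. The log2 fold change was -1.11 ± 0.21 (SE, adjusted p = 0.000328) at 1 µM, and the change from 0.3 to 1 µM was -0.86 (adjusted p = 0.00239). It was the 1 fatty acid gene called of 13, against 3.34% lower among all tested genes. The oligodendrocyte lineage marker sum was 162 to 197 CPM at 1 µM, against 1591 to 1631 at 0 µM, and the astrocyte sum 1196 to 1932, against 2373 to 2494.

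At 0.1 and 0.3 µM 5-fluorouracil, 0 of the 35 members were called and 0 had an unadjusted p under 0.05 (edgeR, and 0 called by DESeq2), against 0.00652% and 0.0456% of all tested genes. Of the 22 sterol genes 0 were called at 1 µM, against 4.03% of all tested genes, and DESeq2 called 1. An unadjusted p under 0.05 was found for 4 (Pmvk, Mvd, Sqle and Nsdhl, all positive), near the 15.5% of all tested genes. The sterol median was 0.19, against 0.008 over all tested genes, and 18 of 22 signs were positive, against 50.9%. This compound has only 2 libraries at 0 µM. More sterol genes were called against the 0 µM libraries of all compounds, as given in the closing section. Mvd had 24.98, 32.06 and 24.59 CPM at 1 µM, against 17.6 and 12.3 CPM at 0 µM. Its log2 value of 0.83 ± 0.27 had an adjusted p of 0.0628 (± is the SE). All of its 1 µM libraries lay above those of 0 µM.

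Compared with 0.1 µM rather than 0 µM, 4 sterol genes were higher at 1 µM 5-fluorouracil and 2 fatty acid genes lower, against 2.67% higher and 6.11% lower among all tested genes. Mvd was higher by 0.88 (adjusted p = 0.00983), Sqle by 0.36 (adjusted p = 0.0308), Fdps by 0.35 (adjusted p = 0.044) and Pmvk by 0.47 (adjusted p = 0.0446). Srebf1 was lower by -1.03 (adjusted p = 8.18e-05) and Elovl5 by -0.41 (adjusted p = 0.0218). Without 0.1 µM replicate 3 the count of 6 became 1. At 0 µM this compound has no GRC321 library, so its project term came from the other concentrations.

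The antimetabolites were set side by side at matched concentrations, as the difference between the effect of cytosine arabinoside and that of 5-fluorouracil, each against its own 0 µM libraries. At 0.1 µM 2 sterol genes and 1 fatty acid gene differed, against 3.84% of all tested genes. Fdps differed by 0.74 ± 0.17 (SE, adjusted p = 0.00588), Sqle by 0.55 ± 0.17 (adjusted p = 0.0488) and Srebf1 by -1.20 ± 0.28 (adjusted p = 0.00486). The sterol count was 0 without 5-fluorouracil 0 µM replicate 1 or 0.1 µM replicate 3, 6 without 5-fluorouracil 0.1 µM replicate 2, 2 without cytosine arabinoside 0.1 µM replicate 2, and 1 without any other single library, where Sqle was lost. The Srebf1 call ended without 5-fluorouracil 0 µM replicate 2 (adjusted p = 0.0625) or 0.1 µM replicate 3 (adjusted p = 0.06).

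At 0.3 µM the difference passed for 3 fatty acid genes, Srebf1 (-2.88, adjusted p = 2.07e-10), Fads1 (-1.17, adjusted p = 0.00146) and Elovl5 (-0.70, adjusted p = 0.0108), against 5.89% of all tested genes. At 1 µM it passed for 5 fatty acid genes and 1 sterol gene, against 12.9%. These were Srebf1 (-3.15, adjusted p = 1.01e-11), Fads1 (-1.75, adjusted p = 1.38e-06), Scd (-2.23, adjusted p = 0.00213), Me1 (-0.90, adjusted p = 0.0158), Fads2 (-0.93, adjusted p = 0.0318) and Hmgcs1 (-0.75, adjusted p = 0.0232). The Hmgcs1 call ended without either 5-fluorouracil 0 µM library, 5-fluorouracil 1 µM replicate 3, cytosine arabinoside 0 µM replicate 3 or 1 µM replicate 2 (largest adjusted p = 0.111), and without cytosine arabinoside 1 µM replicate 3 the sterol count was 6. The Me1 call ended without 5-fluorouracil 0 µM replicate 1 (adjusted p = 0.17), 5-fluorouracil 1 µM replicate 1 (adjusted p = 0.0572) or cytosine arabinoside 0 µM replicate 3 (adjusted p = 0.0625). The Fads1 call at 0.3 µM ended without 5-fluorouracil 0 µM replicate 2 (adjusted p = 0.0725). The Fads2 call ended without 6 of the libraries (largest adjusted p = 0.153) and the Elovl5 call at 0.3 µM without 5-fluorouracil 0 µM replicate 2 (adjusted p = 0.153) or 0.3 µM replicate 3 (adjusted p = 0.0586).

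**Figure D5:**
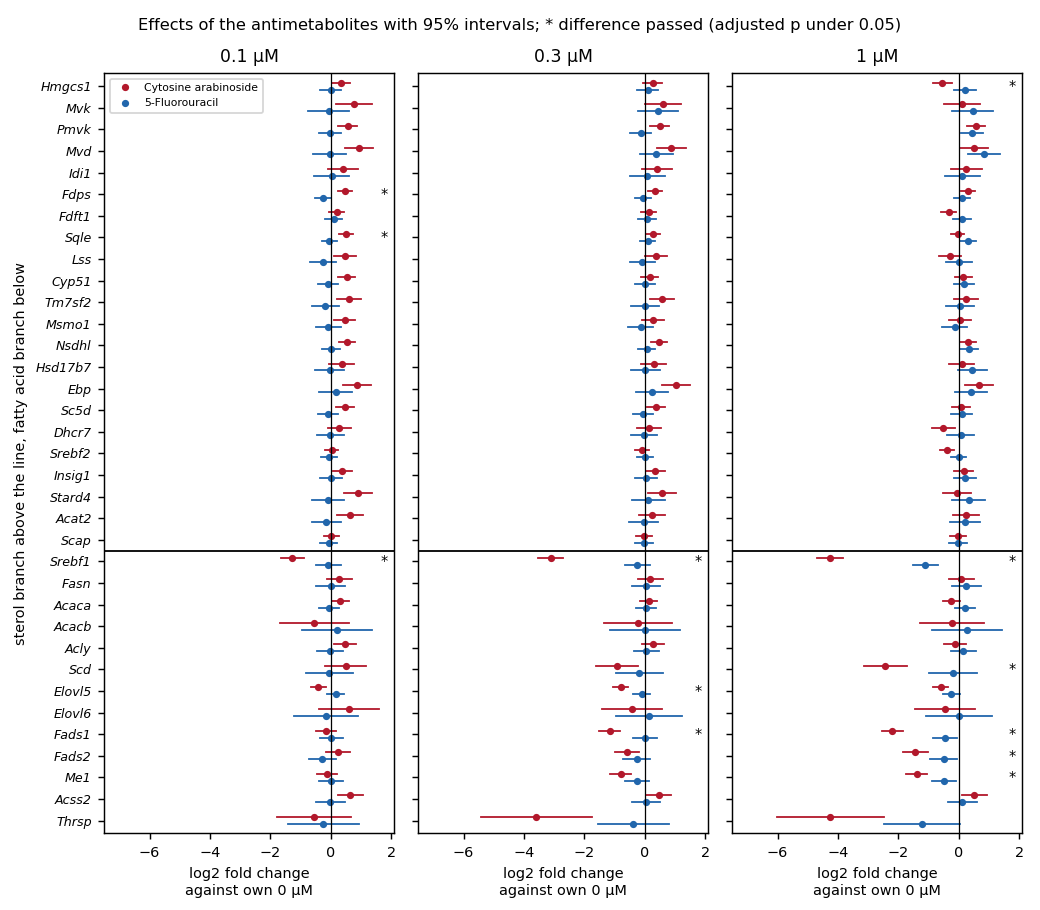
Log2 fold change of each member against own 0 µM with 95% intervals for cytosine arabinoside (red) and 5-fluorouracil (blue) at 0.1, 0.3 and 1 µM, with an asterisk where the difference between compounds had an adjusted p under 0.05. At 1 µM Srebf1 lies at -4.25 for cytosine arabinoside and -1.11 for 5-fluorouracil, and the asterisks at 1 µM stand on Srebf1, Scd, Fads1, Fads2, Me1 and Hmgcs1.

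With domoic acid 1 member, Mvd, was called, at 0.3 µM, and the call did not hold without single libraries. Mvd had 7.81, 16.2 and 11.2 CPM at 0 µM, 11.9, 16.1 and 18.4 at 0.1 µM, 15.3, 48.2 and 17.1 at 0.3 µM, and 10.1, 17.5 and 16.9 at 1 µM. Replicate 2 at 0.3 µM, the library that stood apart, held the 48.2 CPM, and the range of the others overlapped that of 0 µM. The log2 fold change at 0.3 µM was 1.17 ± 0.24 (SE, adjusted p = 0.0163), and without that replicate it was 0.58 with an adjusted p of 0.991. This was 1 of 22 sterol genes, against 1.21% higher and 1.51% called in all among the tested genes. The sterol median at 0.3 µM was 0.21, against 0.023 over all tested genes. Of the 22, 7 had an unadjusted p under 0.05 (edgeR), against 22.5% of all tested genes. Between 0.1 and 0.3 µM no member passed, against 0.0521% higher and 0.0587% called in all. Without that library, or without 0 µM replicate 2 or 3, the sterol count was 0.

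At 0.1 and 1 µM domoic acid 0 members were called by edgeR and by DESeq2, against 0% of all tested genes at both, and 1 and 2 had an unadjusted p under 0.05. Srebf1 had 236, 242 and 289 CPM at 0 µM, 149, 189 and 121 at 0.1 µM, 149, 183 and 163 at 0.3 µM, and 172, 172 and 161 at 1 µM. Every treated library lay below every 0 µM library of this compound. Over the 0 µM libraries of all compounds Srebf1 ran from 134 to 299 CPM, a range that holds most of the treated libraries. How many of all tested genes were likewise without overlap was not counted. The log2 values were -0.74, -0.63 and -0.60, with adjusted p of 1, 0.0544 and 1, so none passed. The value was not larger at the higher concentrations. At 0.3 µM 0 of the 13 fatty acid genes were called by edgeR, against 1.51% of all tested genes, and DESeq2 called 1. An unadjusted p under 0.05 was found for 5, against 22.5% of all tested genes.

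Haloperidol gave 0 member calls at 0.3, 1 or 3 µM with edgeR or DESeq2, against 0%, 0% and 0.0261% of all tested genes. The sterol medians were -0.01, 0.03 and 0.01, no sterol gene had an unadjusted p under 0.05, and the log2 values at 3 µM ran from -0.12 to 0.18. The smallest sterol p was that of Pmvk at 0.3 µM, with 31.01, 26.00 and 21.47 CPM, against 34.3, 28.6 and 27.2 CPM at 0 µM, a log2 value of -0.20 (95% interval -0.51 to 0.11, adjusted p = 1). Ebp, whose product binds this drug, was not called. Srebf1 had 169, 273 and 162 CPM at 0 µM, 130, 173 and 171 at 0.3 µM, 105, 143 and 156 at 1 µM, and 117, 121 and 154 at 3 µM. All libraries of 1 and 3 µM lay below those of 0 µM of this compound, with log2 values of -0.58 and -0.61, and neither passed (adjusted p = 1 and 0.458). The share of all tested genes with such a separation was not counted. Of the further pathway lists 0 genes were called at 3 µM, and the smallest p was that of Fa2h (log2 0.82, adjusted p = 0.722).

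The pyrethroids gave 0 member calls with edgeR or DESeq2 at any concentration, against 0% of all tested genes. The 0.3 µM deltamethrin value rests on 1 library and borrows the spread of the other groups. Over the deltamethrin concentrations 0, 1, 0 and 2 members had an unadjusted p under 0.05, and over those of cypermethrin 0, 2 and 0. The smallest sterol p for deltamethrin was that of Hsd17b7 at 10 µM, with 67.0, 83.4 and 80.8 CPM, against 114, 109 and 92.7 CPM at 0 µM, a log2 value of -0.44 ± 0.21 (SE, adjusted p = 0.959). These groups did not overlap, and the share of all tested genes doing likewise was not counted. The 0 µM libraries of all compounds held 83.6 to 143 CPM of Hsd17b7. Srebf1 had 76.8, 182 and 204 CPM at 10 µM, against 156, 243 and 267 CPM at 0 µM, a log2 value of -0.59 ± 0.18 (adjusted p = 0.959), lower within each project and overlapping over all libraries.

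For cypermethrin the smallest sterol p was that of Msmo1 at 3 µM, with 352, 194 and 224 CPM, against 528 and 231 CPM at 0 µM, a log2 value of -0.36 ± 0.20 (SE, adjusted p = 0.818). In the fatty acid branch it was that of Acacb at 3 µM, with 2.12, 4.66 and 2.40 CPM, against 0.446 and 1.43 CPM at 0 µM, a log2 value of 1.59 ± 0.66 (adjusted p = 0.8), which rests on 20 counts at 0 µM. Deltamethrin carries bromine on its vinyl group where cypermethrin carries chlorine. This 1 pair was compared at the matched concentrations of 1, 3 and 10 µM, with p adjusted over all tested genes at each, and 0 of the 35 members differed (edgeR, with 0 at an unadjusted p under 0.05 and 0 by DESeq2), against 0% of all tested genes. Srebf1 differed by -0.37 (95% interval -0.92 to 0.18) at 1 µM, -0.42 (-0.97 to 0.12) at 3 µM and -0.44 (-0.99 to 0.11) at 10 µM, intervals that leave room for a difference of nearly 1 on the log2 scale.

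Across the 16 libraries of 0 µM the members also differed by project. Fads2 was at 190 to 285 CPM in the 5 GRC321 libraries and at 584 to 969 CPM in the 11 GRC327 libraries. Cyp51 was at 866 to 1053 CPM in GRC321 and 477 to 600 CPM in GRC327, and Fdft1, Sqle, Msmo1 and Nsdhl were likewise higher in GRC321 without overlap. The fit holds a project term for each compound, so these offsets are not part of the fold changes.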

How the data were processed

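RNA of 71 libraries in 25 groups was read from the deposited table of gene counts. Per the labels' protocols, RNA was purified with RNeasy Plus kits and libraries were made from polyA RNA. STAR and Partek are named in the submitters' processing notes, and their versions, the genome build and the strandedness are not given in the sources used here. The values are estimated counts per gene that the authors made and deposited, of which 20.6% were not whole within a tolerance of 1e-06, and they were rounded. The CPM the authors deposited beside them were not used: CPM printed here were computed from the rounded counts with TMM factors, which ran from 0.8745 to 1.155. A filter with a minimum of 10 counts left 15343 of 19771 genes.

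edgeR 4.0.16 (limma 3.58.1, R 4.3.3) fitted 1 quasi-likelihood model with 25 groups and a project term per compound, leaving 40 residual degrees of freedom. Each concentration was compared with the compound's own 0 µM libraries, with its neighbours and, where matched, with the related compound, with Benjamini-Hochberg adjustment over all tested genes. The fit was tested on simulated data. Per compound and branch, up to 4 called members with the smallest p, or the 1 with the smallest p where none was called, are given in full, and others so given were chosen after their values were seen. Members and lists were chosen with earlier results of these data known. Alternatives were DESeq2 1.42.0 (test and size factors), no filter, a minimum of 50, other project terms, GRC327 alone, all 0 µM libraries and a fit per compound. Fits that leave out a library reused the full fit's genes and trended dispersion. Intervals around fold changes are 95% intervals.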

Additional observations from a re-analysis of the deposited data

How the results depend on the processing

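No paired analysis was possible because the replicate numbers follow accession order and the labels tie no library of one concentration to a library of another. Over 83 results on single members, 700 values under other settings kept the sign of the main value, 561 kept the call, 135 lost it and 4 gained one. Most losses came without a project term (41), in GRC327 alone (35) and in a fit per compound (31). In the order no project term, GRC327 alone and fit per compound, the sterol genes higher at 0.1 µM cytosine arabinoside numbered 2, 3 and 1 (10 in the full fit), those at 0.3 µM 2, 2 and 3 (6) and those at 1 µM 1, 1 and 1 (3). The lower ones at 1 µM numbered 1, 1 and 0 (4), and those lower at 1 than at 0.1 µM 4, 3 and 4 (9). With all 0 µM libraries as the comparison, 11 sterol genes were higher at 0.3 µM. Under other settings the shares of all tested genes were not counted by direction, so these counts are not set against a share. Calls over all tested genes moved as well, as given below. Of the fatty acid genes, the 1 higher at 0.1 µM became 0 without a filter, without a project term, with a single one, in GRC327 alone and per compound, and 3 against all 0 µM libraries. The 2 lower became 1 without a project term, with a single one and per compound. Against all 0 µM libraries 1 was higher at 0.3 µM and 0 at 1 µM, where 0 was also the count without a filter, without a project term, with a single one and in GRC327 alone.

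For 5-fluorouracil at 1 µM, all 0 µM libraries gave 7 sterol and 4 fatty acid genes (0 and 1 in the full fit), and DESeq2 1 sterol gene. At 1 against 0.1 µM the 6 members became 3 without a filter, in GRC327 alone and per compound, and 1 without a project term. For domoic acid at 0.3 µM the 1 sterol gene became 2 at a minimum of 50 counts, 3 in GRC327 alone and by DESeq2, 5 against all 0 µM libraries and 0 without a project term or per compound, and the 0 fatty acid genes became 1 at a minimum of 50, by DESeq2 and against all 0 µM libraries, and 2 in GRC327 alone. For cytosine arabinoside minus 5-fluorouracil at 0.1 µM the 2 sterol genes became 1 with DESeq2 size factors, without a filter and in GRC327 alone, and 0 without a project term. The 1 fatty acid gene became 2 at a minimum of 50, in GRC327 alone and by DESeq2, and 0 without a project term. At 1 µM the 1 sterol gene became 0 without a project term and the 5 fatty acid genes 3 in GRC327 alone. Haloperidol and the pyrethroids together gave 1 member against all 0 µM libraries. The causes were not tested.

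Over all tested genes, cytosine arabinoside 0.1 µM had 1401 calls, and 505 without a project term, 896 in GRC327 alone, 2285 against all 0 µM libraries and 486 per compound. At 0.3 µM 2703 became 1381 without a project term and 1591 per compound, and at 1 µM 5520 became 3113 without it. For 5-fluorouracil 1 µM 619 became 274 without it and 2477 against all 0 µM libraries. For domoic acid 0.3 µM 231 became 152 without a filter, 422 at a minimum of 50, 0 without a project term and per compound, 2109 in GRC327 alone, 1270 against all 0 µM libraries and 619 by DESeq2.

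Leaving out single libraries gave 5 to 9, 3 to 7 and 0 to 8 sterol genes higher at 0.1, 0.3 and 1 µM cytosine arabinoside, 0 to 6 lower at 1 µM and 6 to 15 lower at 1 than at 0.1 µM. The fatty acid genes lower numbered 1 to 2, 5 to 7 and 7 to 9, those higher 0 to 1, 0 and 0 to 1, and those lower at 1 than at 0.1 µM 7 to 9. For 5-fluorouracil at 1 µM the ranges were 0 to 1 sterol and 1 to 2 fatty acid genes, and 1 to 7 members at 1 against 0.1 µM. For domoic acid at 0.3 µM they were 0 to 4 and 0 to 2. For the antimetabolite difference they were 0 to 6, 0 to 1 and 0 to 6 sterol and 0 to 2, 1 to 3 and 3 to 5 fatty acid genes. Over all tested genes they were 906 to 1184, 2144 to 2455 and 4467 to 5599 for cytosine arabinoside, 346 to 654 for 5-fluorouracil 1 µM and 0 to 2942 for domoic acid 0.3 µM. Groups of 2 or 3 libraries limit the precision, as do low counts for Acacb, Ebp, Mvk, Mvd and Thrsp.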
